A study of Mus musculus with 8 samples.

Results

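Rab proteins are small GTPases of the Ras superfamily, and each marks a membrane compartment or a route between compartments. The Rab genes described here are all gene symbols in the count files that consist of Rab, a number and at most a letter and a further digit, which gave 59 of the 24421 symbols listed. They were sorted by the compartment they are best known for into early endosome (7 genes), recycling (9), late endosome and lysosome (12), secretory and Golgi (25) and other or mixed roles (6). The sorting did not use measured values. Of the 59 genes, 52 passed the filter on low counts and were tested. The other 7 were Rab17 and Rab25 of the recycling class, Rab9b of the late endosome class, and Rab26, Rab33a, Rab3b and Rab3c of the secretory class. Rab9b had no count in any library, and the highest count of the untested genes was 22, for Rab33a in 1 library.

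RNA was sequenced from primary macrophages of mice on a normal diet, in 8 libraries. The groups were wild type (WT, 3 libraries), LysM-DKO (3) and ABCG1KO (2). LysM-DKO is the name in the sample labels, and the design text gives Epsin-DKO for what is taken here as that group. Epsins are endocytic adaptor proteins, LysM-Cre is commonly used to delete genes in myeloid cells, and ABCG1 is a transporter that exports cholesterol from cells. The labels do not give the tissue the macrophages came from, or the sex and age of the mice. Nor do they give the alleles behind either knockout, or whether the numbered replicates were separate animals. The p-values below thus measure only the spread between these libraries. That spread may be technical, although sex-linked genes given below separate LysM-DKO 1 from LysM-DKO 2 and 3.

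A Rab protein switches between a form bound to GTP, which sits on a membrane and recruits effectors such as tethers and motors, and a form bound to GDP, which is held in the cytosol by a dissociation inhibitor. Exchange factors turn a Rab on, GTPase-activating proteins turn it off, and a prenyl group added after synthesis anchors it. In macrophages, material taken up by endocytosis or phagocytosis passes from Rab5 compartments either back to the surface through Rab4, Rab11 and Rab35 routes or on to lysosomes under Rab7, while Rab1, Rab2, Rab6 and Rab8 act along the secretory route.

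The libraries held 29567615 to 41888516 counts in genes, and the share of these on Rab genes was 0.452% to 0.492% in WT, 0.505% to 0.520% in LysM-DKO, and 0.524% and 0.551% in ABCG1KO, so the 3 groups did not overlap. A count of 0 allows up to 3 counts, or 0.0708 to 0.0941 CPM (counts scaled to the library size with TMM factors), and this limit covers counting error only. Abcg1 stood at 60.4 and 73.4 CPM in ABCG1KO and at 345 to 405 CPM in WT. Epn1 stood at 155 to 183 CPM in LysM-DKO and 191 to 230 CPM in WT, so most of the transcript remained in the libraries labelled LysM-DKO, and Epn2 at 5.67 to 13.2 CPM and 4.97 to 8.86 CPM. Counts per gene do not show whether a part of the gene was deleted, so the epsin deletion in LysM-DKO rests on the label. All 7 macrophage markers examined (among them Adgre1, Csf1r and Cd68) were present in every library. Their summed level, 10870 to 12840 CPM in LysM-DKO against 17880 to 21070 CPM in WT and 18080 to 21540 CPM in ABCG1KO, was carried by Lyz2, the gene of lysozyme M, with means of 14620 CPM in WT and 6849 CPM in LysM-DKO. Lyz2 did not overlap between these groups, at 13004 to 15710 CPM in WT and 6177 to 8105 CPM in LysM-DKO. In ABCG1KO it was at 14412 and 11237 CPM. None of the 7 markers was called in LysM-DKO against WT, where 6 had a negative log2 fold change. Adgre1, Csf1r and Cd68 were at -0.12, -0.05 and -0.02, Lyz2 at -1.09, Itgam at -0.65, Fcgr1 at -0.23 and Mertk at 0.50. In ABCG1KO against WT, Adgre1 and Csf1r were called higher (1.21 and 1.19) and Cd68 lower (-1.06). Itgam (1.01), Mertk (-0.125), Lyz2 (-0.19) and Fcgr1 (-0.85) were not called there. Xist was at 0 in both ABCG1KO libraries and at 0.0485 CPM in LysM-DKO 1, against 79.1 to 265 CPM elsewhere, and Ddx3y showed the reverse split. Sex and genotype thus cannot be told apart in ABCG1KO against WT. LysM-DKO 1 had the male pattern, and LysM-DKO 2 and 3 had the female pattern of the WT libraries. The LysM-DKO libraries thus did not all come from the same mice, and LysM-DKO against WT mixes the sexes within LysM-DKO. LysM-DKO against ABCG1KO sets this mixed group against libraries that all had the male pattern. Reads aligned to several loci made up 6.93% and 6.74% of the ABCG1KO libraries and 2.65% to 3.01% of the others, and reads outside annotated genes 13.8% and 10.2% against 4.26% to 6.07%.

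In wild-type macrophages the Rab transcripts were dominated by a few endosomal and secretory genes. Levels of different genes were compared per kilobase of exon, as CPM per kilobase. Rab7, which drives fusion of late endosomes with lysosomes, was highest at 321.8 ± 43.9 CPM per kilobase (SD, n = 3), or 21.0% of the sum over all Rab genes. Rab5c, a form of the early endosome GTPase, followed at 171.6 ± 29.3 CPM per kilobase, or 11.2%. The WT ranges of both lay apart from that of the next gene in the order. Below them came the secretory genes Rab1b, at 100 ± 18.9 CPM per kilobase, Rab8b, at 91.3 ± 10, and Rab1, at 78.3 ± 16.5, then Rab7b at 74.5 ± 6.34. In this stretch of the order each gene overlapped its neighbour and their order is not resolved. These 6 genes made up 54.7% of the sum per kilobase. The highest member of the recycling class was Rab11a, at 33.9 ± 0.866 CPM per kilobase, and of the remaining class Rab18, a protein of lipid droplets, at 16.0 ± 0.908.

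The breadth of expression differed between the classes. In WT, 17 of the 59 genes had a mean of at least 100 CPM and 37 a mean of at least 10 CPM, while 15 were under 1 CPM. All 7 early endosome genes were at 10 CPM or more. Of the 25 secretory genes, 14 were at 10 CPM or more and 9 were lower than 1 CPM, among them Rab3b, Rab3c, Rab26 and Rab37, which serve regulated exocytosis in secretory cells. The spread between WT libraries, as a median coefficient of variation over the tested genes of a class, was 6.14% for early endosome, 9.52% for recycling, 13.5% for late endosome and 18.0% for secretory genes. Of the 9 secretory genes under 1 CPM, Rab3b, Rab3c, Rab26 and Rab33a were not tested and do not enter this median.

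**Figure D1:**
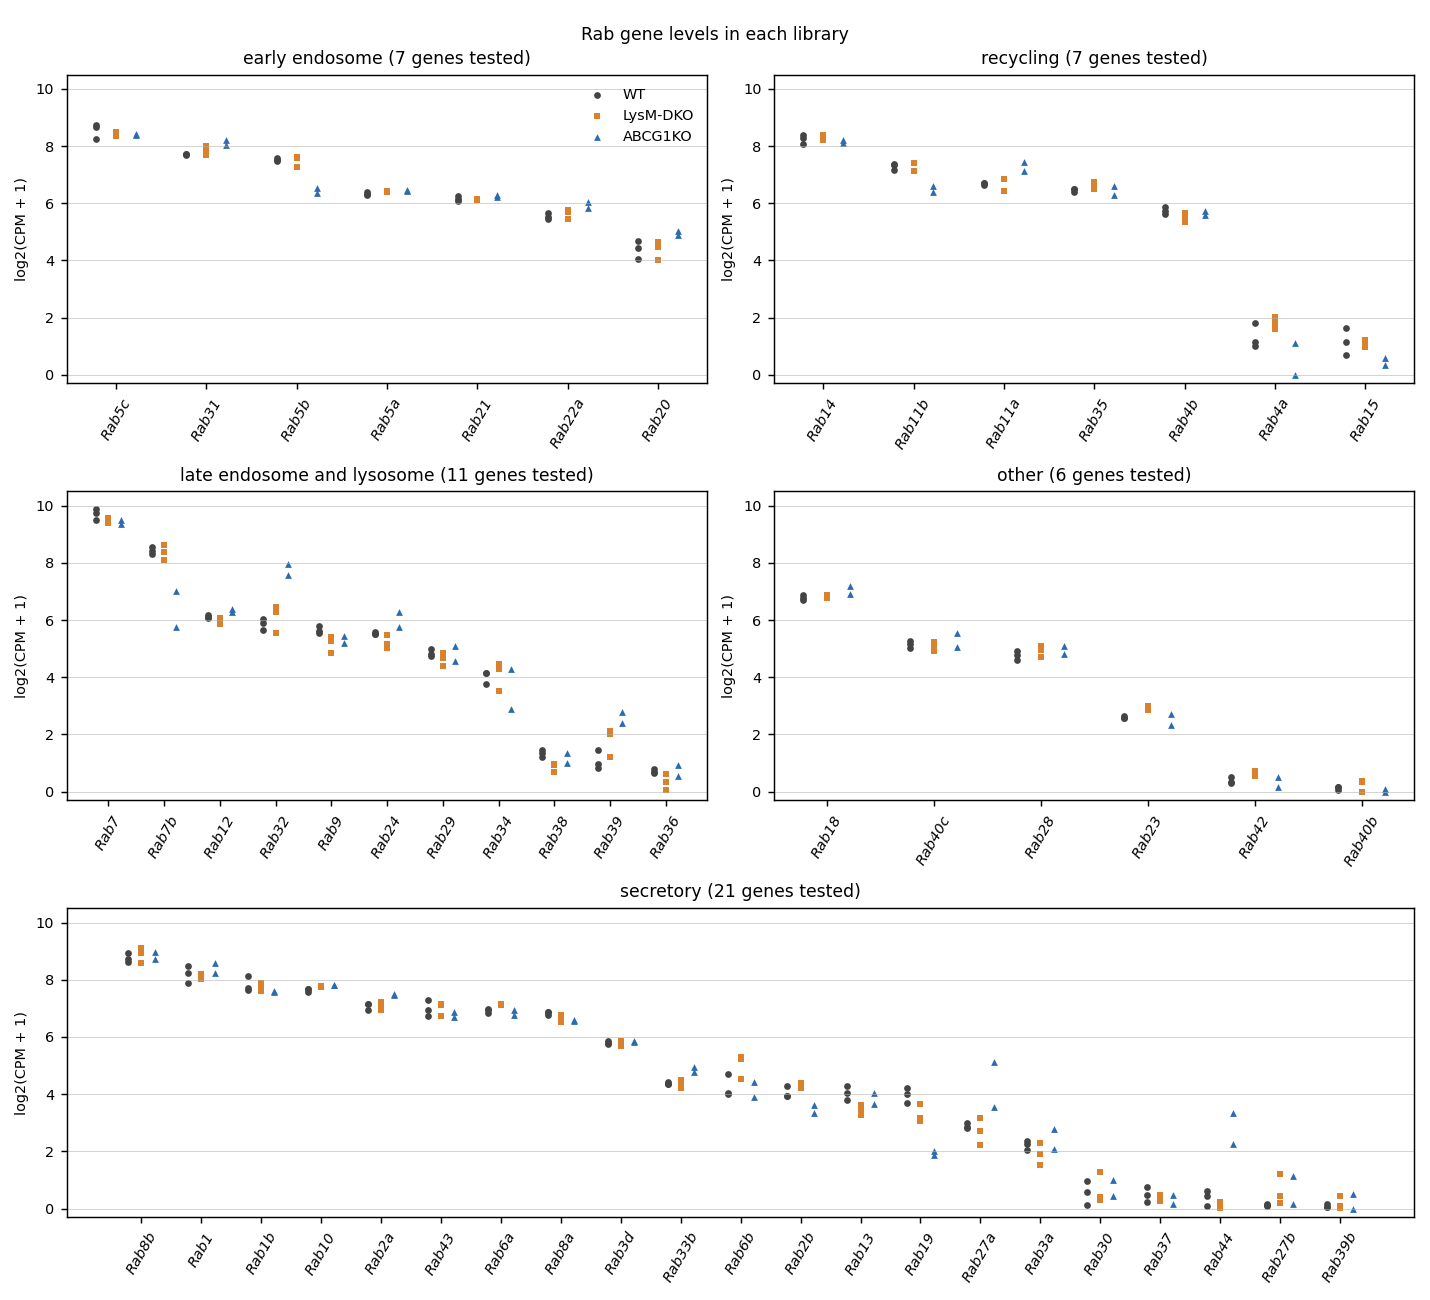
Level of each of the 52 tested Rab genes in each library as log2(CPM + 1), in a panel per class, with genes ordered by mean level and 1 point per library (circles WT, squares LysM-DKO, triangles ABCG1KO). Most genes show the 3 groups at similar heights, while Rab5b, Rab11b, Rab7b and Rab19 have both triangles below all other points and Rab32, Rab27a and Rab44 have both above.

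The total Rab level overlapped between the 3 groups after TMM scaling, unlike the unscaled shares given above. The summed level was 4816 to 5399 CPM in WT, 4862 to 5280 CPM in LysM-DKO and 4856 and 5034 CPM in ABCG1KO. The late endosome and lysosome genes took 26.8% to 29.5% of the Rab CPM in WT, 25.0% to 27.6% in LysM-DKO and 24.8% and 25.1% in ABCG1KO. The ABCG1KO shares thus lay below all WT shares, as they did per kilobase (32.4% and 31.9% against 32.8% to 34.9%). The secretory genes took 34.4% to 36% in WT, 35.9% to 37.1% in LysM-DKO, and 37.1% and 38.9% in ABCG1KO, where LysM-DKO overlapped both. Per kilobase the secretory shares were 33.2% to 34.47% in WT, 34.9% to 35.6% in LysM-DKO, and 34.48% and 36.1% in ABCG1KO. Both other groups thus lay above WT on this scale, but ABCG1KO 1 was almost level with the highest WT library. The shares of a library add up to a whole, so those of the classes are not independent. In such bulk libraries, fewer cells of a type and less RNA per cell cannot be told apart.

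No Rab gene was called in LysM-DKO against WT. With edgeR's quasi-likelihood test and Benjamini-Hochberg adjustment over 13821 genes, 0 of the 52 tested Rab genes had an adjusted p under 0.05, where 0.0362% of all genes tested were called, 0.0217% higher and 0.0145% lower. DESeq2 also called 0, where it called 299 of all genes (2.16%). At an unadjusted p under 0.05 there were 6 Rab genes of 52 (11.5%), 3 higher and 3 lower, where 11.7% of all genes reached that level, 6.04% higher and 5.61% lower. The Rab fold changes had a median of -0.03 on the log2 scale, beside 0.02 for all genes tested, with 23 positive and 29 negative. With libraries scaled by size only, both medians shifted up together, to 0.13 for the Rab genes and 0.17 for all genes, and again 0 Rab genes were called. The ranges of the 2 groups did not overlap for 12 of the 52 genes (23.1%), 5 higher and 7 lower, which is near the 21% of all genes that separated in this way, 11% higher and 9.98% lower. By class, the separated genes were 5 of 11 late endosome genes, all lower (Rab9, Rab12, Rab24, Rab36 and Rab38), 5 of 21 secretory genes, 2 of the 6 other genes, and 0 of the 7 early endosome and 0 of the 7 recycling genes. No test of the classes against each other was made.

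The 6 Rab genes with the smallest unadjusted p in LysM-DKO are described here although none was called. Rab13, which acts in delivery to the cell surface and at cell junctions, stood at 15.3, 18.3 and 12.7 CPM in WT and at 9.72, 11.4 and 8.55 CPM in LysM-DKO. The lowest WT library lay above the highest LysM-DKO library, and the log2 fold change was -0.64 (standard error 0.212, edgeR Benjamini-Hochberg adjusted p 0.354). Rab19, a Golgi Rab, was at 17.4, 15.1 and 12 CPM in WT while LysM-DKO gave 11.5, 7.97 and 7.45 CPM, and the log2 fold change was -0.73 (standard error 0.241, edgeR adjusted p 0.354). Rab9, an X-linked gene whose product returns mannose 6-phosphate receptors from late endosomes to the Golgi, was at 45.3, 54.3 and 47.7 CPM in WT and at 41.9, 38.0 and 27.9 CPM in LysM-DKO (log2 fold change -0.45, standard error 0.171, edgeR adjusted p 0.393). For these 3 genes all LysM-DKO libraries lay below all WT libraries.

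The other 3 of the 6 were higher on average in LysM-DKO. Rab6b, a relative of the Golgi GTPase Rab6a, was at 15.5, 15 and 25.1 CPM in WT and at 36.2, 38.3 and 22.2 CPM in LysM-DKO, so the groups overlapped (log2 fold change 0.80, standard error 0.289, edgeR adjusted p 0.375). Rab39, which acts on phagosomes, was at 0.970, 1.77 and 0.780 CPM in WT and at 3.37, 3.10 and 1.32 CPM in LysM-DKO, again with overlap (log2 fold change 1.15, edgeR adjusted p 0.427). Rab27b, which acts in granule and exosome release, had 4, 3 and 2 counts in WT and 6, 14 and 53 counts in LysM-DKO. Most of its LysM-DKO counts came from a single library, and its log2 fold change of 2.81 (edgeR adjusted p 0.409) was 1.51 without LysM-DKO 3.

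The best known member of each class was not called in LysM-DKO. Rab5a was at 77.7, 79.8 and 84.0 CPM in WT and 85.1, 83.0 and 83.2 CPM in LysM-DKO (log2 fold change 0.06, edgeR adjusted p 0.839). Rab7 was at 948, 852 and 719 CPM in WT and 768, 675 and 758 CPM in LysM-DKO (log2 fold change -0.20, edgeR adjusted p 0.616). Rab5c was at 421, 405 and 303 CPM in WT and 359, 341 and 322 CPM in LysM-DKO (log2 fold change -0.14, edgeR adjusted p 0.723). In each of these genes the groups overlapped. Rab11a overlapped likewise, at 103, 98.3 and 103 CPM in WT and 84.8, 84.8 and 115 CPM in LysM-DKO, as did Rab27a, at 6.21, 6.93 and 6.0 CPM and 5.55, 7.92 and 3.67 CPM. Rab4a, the GTPase of fast recycling, was low at 1.23, 2.49 and 1.04 CPM in WT and 2.06, 3.02 and 2.55 CPM in LysM-DKO, while its paralog Rab4b was at 48.1 to 58.0 CPM in WT.

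Of the 52 tested Rab genes, 9 were called in ABCG1KO against WT (17.3%), where 16% of all genes tested were called, so the share is near the background. The same edgeR fit and adjustment gave 5 Rab genes higher and 4 lower, where 7.21% of all genes were called higher and 8.83% lower. The Rab genes had a median log2 fold change of 0.02, beside 0.01 for all genes tested, with 26 positive and 26 negative. When libraries were scaled by size only, the median of all genes moved to 0.25 and that of the Rab genes likewise to 0.25, and 18 Rab genes were called (34.6%), 14 higher and 4 lower, where 21.2% of all genes were called, 2074 genes higher and 856 lower in place of 996 higher and 1220 lower. The 9 Rab calls kept their direction under that scaling. Without ABCG1KO 1, 5 Rab genes were called, Rab32 higher and Rab5b, Rab7b, Rab11b and Rab19 lower. The ranges of the groups did not overlap for 25 of the 52 genes (48.1%), 16 higher and 9 lower, where 48.2% of all genes separated, 23.9% higher and 24.2% lower. By class, the calls were 1 of 7 early endosome genes (lower), 2 of 7 recycling genes (1 higher and 1 lower), 3 of 11 late endosome genes (2 higher and 1 lower), 3 of 21 secretory genes (2 higher and 1 lower) and 0 of 6 other genes.

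**Figure D2:**
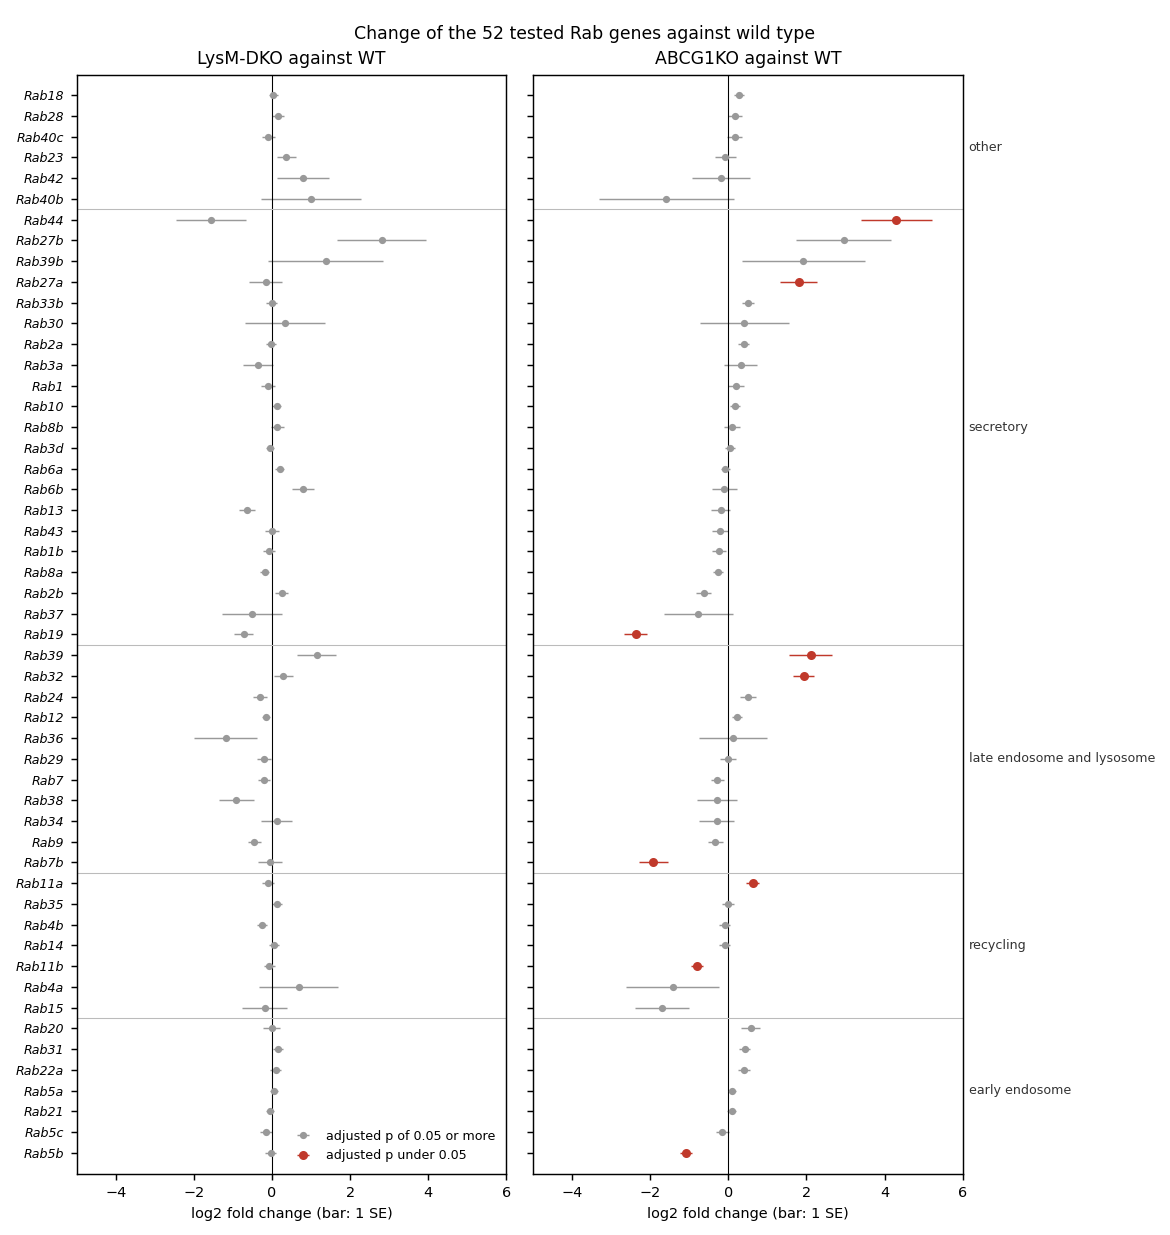
Log2 fold change (horizontal axis) with 1 standard error for each of the 52 tested Rab genes, in LysM-DKO against WT (left) and ABCG1KO against WT (right), grouped by class and ordered by the ABCG1KO value. No gene is called on the left, 9 genes are called on the right, from -2.37 for Rab19 to 4.31 for Rab44, and both panels share the WT libraries.

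Among early endosome genes, Rab5b fell in ABCG1KO while its paralogs Rab5a and Rab5c were not called. Rab5b (chr10:128677175-128696264 of GRCm38, minus strand) was at 178, 181 and 191 CPM in WT, 197, 189 and 151 CPM in LysM-DKO, and 80.4 and 91.7 CPM in ABCG1KO. Both ABCG1KO libraries lay far below all the others. The log2 fold change against WT was -1.09 (standard error 0.158, edgeR Benjamini-Hochberg adjusted p 0.00385), which is 47.0% of the WT level. Rab5a was at 87.1 and 84.5 CPM in ABCG1KO (log2 fold change 0.09, edgeR adjusted p 0.607) and Rab5c at 333 and 345 CPM (log2 fold change -0.15, edgeR adjusted p 0.587). Per kilobase, Rab5b made up 17.0% to 22.8% of the 3 Rab5 genes in WT, 18.2% to 20.8% in LysM-DKO, and 10.2% and 11.2% in ABCG1KO. The Rab5c share was 80.6% and 81.0% in ABCG1KO, above the 69.3% to 77.1% of the other libraries.

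Part of the Rab5b sequence is not unique in the mouse genome, which bears on how reads are counted. Of its distinct 50-base words, 9.80% also occur in transcripts of another locus, chiefly the processed pseudogene Gm13991 (chr2:116527843-116528490). The coding part of Rab5b is 648 bases, 20.4% of a 3180-base transcript, and 644 of these 648 bases are identical in the pseudogene. The following stretches, from GENCODE vM21 transcripts (GRCm38), cover coding bases 505 to 594. They are the first run of 90 aligned coding bases with the most differences between the gene and the pseudogene. Capitals mark the 2 bases that differ.
Rab5b: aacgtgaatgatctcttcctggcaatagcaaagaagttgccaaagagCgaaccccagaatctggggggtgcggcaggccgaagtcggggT
Gm13991: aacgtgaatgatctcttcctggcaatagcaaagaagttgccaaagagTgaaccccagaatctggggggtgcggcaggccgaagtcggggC
Reads aligned to several loci were more frequent in the ABCG1KO libraries, as given above, and their part in the Rab5b value was not tested.

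Among recycling genes, Rab11a and Rab11b moved in opposite directions in ABCG1KO. Both encode closely related GTPases of the recycling endosome. Rab11a (chr9:64715299-64737758) was at 103, 98.3 and 103 CPM in WT, 84.8, 84.8 and 115 CPM in LysM-DKO, and 174 and 138 CPM in ABCG1KO. Both ABCG1KO libraries were the highest of the 8. Rab11b (chr17:33742484-33760530) was at 166, 142 and 160 CPM in WT, 169, 140 and 137 CPM in LysM-DKO, and 95.6 and 82.2 CPM in ABCG1KO, where both libraries were the lowest of the 8. Rab11a rose by 0.62 on the log2 scale (standard error 0.174, edgeR Benjamini-Hochberg adjusted p 0.0455) and Rab11b fell by 0.81 (standard error 0.156, edgeR adjusted p 0.0125). Rab11a thus made up 78.8% and 77.4% of the pair per kilobase in ABCG1KO, against 56.0% to 58.7% in WT and 50.7% to 63.2% in LysM-DKO. The Rab11a call was kept in 6 of 16 alternative settings, with a log2 fold change of 0.44 without ABCG1KO 1. Rab11b was called in 14 of 15 and was lost without ABCG1KO 2 (-0.71).

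Rab11b also has a near copy. Its 657-base coding part is 10.8% of a 6109-base transcript, and 653 of 654 aligned bases are identical in the processed pseudogene Rab11b-ps2 (chr19:7398424-7399077). The stretches below cover coding bases 63 to 152, and the capital marks the only base that differs in the alignment.
Rab11b: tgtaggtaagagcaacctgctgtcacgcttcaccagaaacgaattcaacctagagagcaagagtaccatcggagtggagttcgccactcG
Rab11b-ps2: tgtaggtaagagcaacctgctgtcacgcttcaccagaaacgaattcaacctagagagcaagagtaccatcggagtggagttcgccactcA
Of the 4 Rab genes called lower in ABCG1KO, Rab7b and Rab19 had 0% of shared words, while Rab5b and Rab11b were among the 5 Rab genes with more than 5% of shared words, and 4 of these 5 had a negative fold change in ABCG1KO. Across the genome, 2874 tested genes with at least 1% of shared words had 176 calls higher and 534 lower, and 10852 genes below 1% had 814 higher and 683 lower. Over all genes, shared sequence and lower calls in ABCG1KO thus went together, and the part of shared sequence in the Rab5b and Rab11b values was not tested.

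The remaining recycling genes were not called in ABCG1KO. Rab4a had 0 counts in ABCG1KO 1 and 49 counts in ABCG1KO 2, so the replicates of that group disagreed. Its log2 fold change was -1.43 (edgeR adjusted p 0.454), and -0.46 without ABCG1KO 1. Without ABCG1KO 2 the group is left with the library at 0 counts, and the gene was called lower. Rab4b was at 51.9 CPM in ABCG1KO 1, within the WT range, and at 46.6 CPM in ABCG1KO 2, just below it. Rab15, a low gene, had a log2 fold change of -1.70 (edgeR adjusted p 0.135), and Rab14 and Rab35, which act between Golgi and endosomes and in fast recycling, were not called either.

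Among late endosome and lysosome genes, Rab7b fell in ABCG1KO while Rab32 and Rab39 rose. Rab7b, which directs traffic from late endosomes to the Golgi and is known to lower Toll-like receptor signalling in macrophages, lies at chr1:131688695-131715439. It was at 374, 343 and 316 CPM in WT, 391, 272 and 334 CPM in LysM-DKO, and 52.8 and 129.8 CPM in ABCG1KO. Both ABCG1KO values lay far below the others, and they differed from each other by more than the WT libraries did. The log2 fold change was -1.92 (standard error 0.361, edgeR Benjamini-Hochberg adjusted p 0.0116), or 26.5% of WT. It ran from -2.71 without ABCG1KO 2 to -1.42 without ABCG1KO 1 and remained called in all 16 alternative settings.

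Rab7, the main late endosome GTPase, was not called. It was at 658 and 729 CPM in ABCG1KO against 719 to 948 CPM in WT, so that the groups overlapped (log2 fold change -0.28, edgeR adjusted p 0.311). Rab7b accordingly made up 4.33% and 9.14% of the sum of Rab7 and Rab7b per kilobase in ABCG1KO, and 18.2% to 22.3% in all other libraries. Rab7 had the largest share of non-unique words of the Rab genes, 11.4%, chiefly with Rab7-ps1 (chr9:54824661-54825282), which is identical at 612 of 622 aligned bases. The stretches below, coding bases 2 to 91, show that copy beside the gene with the highest Rab level, with capitals at the 4 bases that differ.
Rab7: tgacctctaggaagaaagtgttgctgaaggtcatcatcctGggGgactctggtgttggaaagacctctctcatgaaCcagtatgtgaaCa
Rab7-ps1: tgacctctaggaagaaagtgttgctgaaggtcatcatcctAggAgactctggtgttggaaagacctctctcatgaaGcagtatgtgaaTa

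**Figure D3:**
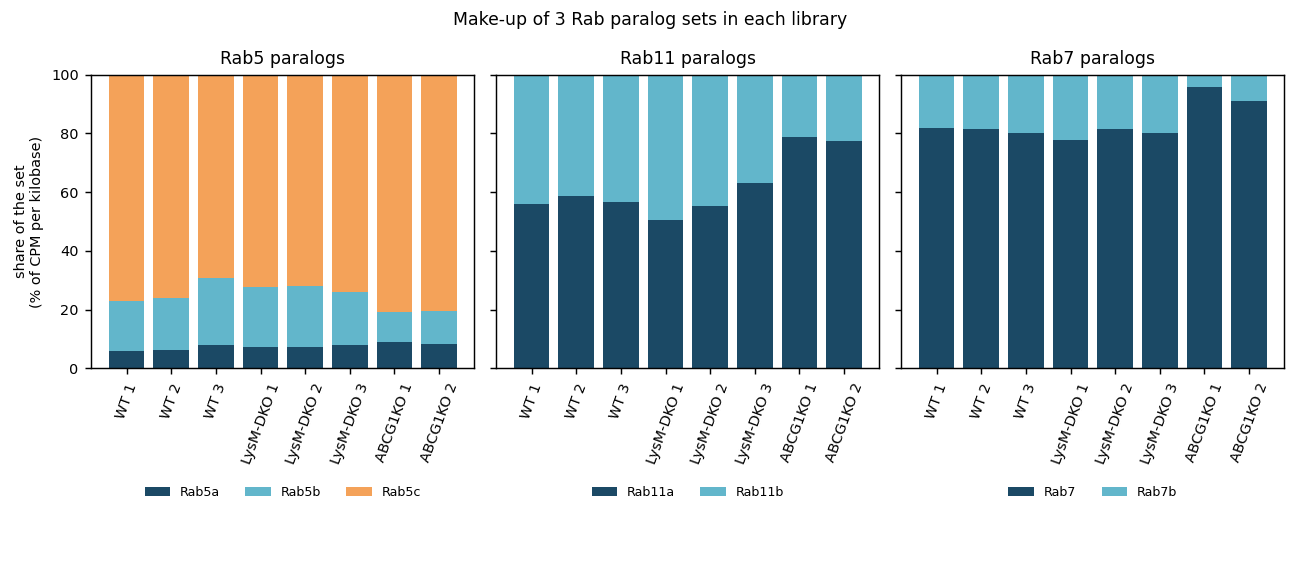
Share of each gene in the summed CPM per kilobase (vertical axis, %) of the Rab5, Rab11 and Rab7 sets, with 1 stacked bar per library. In both ABCG1KO bars the Rab5b, Rab11b and Rab7b segments are smaller than in the 6 other libraries, at 10.2% and 11.2%, 21.2% and 22.6%, and 4.33% and 9.14%.

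Rab32, which serves lysosome-related organelles together with its paralog Rab38, rose in ABCG1KO. Rab32 (chr10:10545002-10558265) was at 64.5, 58.7 and 49.2 CPM in WT, 46.0, 76.3 and 87.6 CPM in LysM-DKO, and 250.1 and 189 CPM in ABCG1KO. Both ABCG1KO libraries stood above all others and LysM-DKO overlapped WT. The log2 fold change was 1.93 (standard error 0.267, edgeR Benjamini-Hochberg adjusted p 0.00312), a 3.82-fold level. This call was kept in all 16 alternative settings, and Rab32 has less than 1% of shared words. Rab38 was low, at 1.32 to 1.77 CPM in WT, 0.606 to 0.975 CPM in LysM-DKO, and 1.57 and 0.991 CPM in ABCG1KO. Its own level thus overlapped WT in ABCG1KO and lay below WT in LysM-DKO. Rab38 was called in neither group against WT (edgeR adjusted p 0.741 in ABCG1KO and 0.471 in LysM-DKO). It made up 3.51% to 4.28% of the pair per kilobase in WT, 1.62% to 1.92% in LysM-DKO, and 0.921% and 0.772% in ABCG1KO, so that its share separated the 3 groups.

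Rab39 rose as well, from a low level. It was at 5.90 and 4.22 CPM in ABCG1KO, above the 0.780 to 1.77 CPM of WT and the 1.32 to 3.37 CPM of LysM-DKO. The log2 fold change was 2.11 (standard error 0.543, edgeR Benjamini-Hochberg adjusted p 0.0349), and the call was kept in 10 of 16 alternative settings. The other 8 tested genes of the class, Rab7, Rab9, Rab12, Rab24, Rab29, Rab34, Rab36 and Rab38, were not called. Rab24, a Rab linked to autophagy, was at 77.3 and 52.5 CPM in ABCG1KO, above the 44.7 to 47.3 CPM of WT and the 31.8 to 43.9 CPM of LysM-DKO, with an edgeR adjusted p of 0.120 against WT.

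Among secretory genes, Rab19 fell furthest. Rab19 (chr6:39381175-39390380) was at 17.4, 15.1 and 12 CPM in WT, 11.5, 7.97 and 7.45 CPM in LysM-DKO, and 2.7 and 3.04 CPM in ABCG1KO. The 3 groups did not overlap, with ABCG1KO lowest and LysM-DKO between. The log2 fold change in ABCG1KO against WT was -2.37 (standard error 0.297, edgeR Benjamini-Hochberg adjusted p 0.00186), or 19.4% of WT. This was the smallest adjusted p of the Rab genes, and the call was kept in all 16 alternative settings.

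Rab27a and Rab44 rose in ABCG1KO, and the rise of each was larger in the library ABCG1KO 1. Rab27a (chr9:73044854-73097629), which docks secretory granules at the plasma membrane, was at 6.21, 6.93 and 6.0 CPM in WT and at 33.9 and 10.7 CPM in ABCG1KO. Rab44 (chr17:29114145-29148980), a large Rab protein known from mast cell granules and bone-resorbing cells, had 2, 13 and 21 counts in WT, 1, 5 and 7 counts in LysM-DKO, and 291 and 159 counts in ABCG1KO, or 9.12 and 3.75 CPM. Rab44 rose by 4.31 on the log2 scale (standard error 0.918, edgeR Benjamini-Hochberg adjusted p 0.0184) and Rab27a by 1.80 (standard error 0.470, edgeR adjusted p 0.0361). Without ABCG1KO 1 the Rab27a value was 0.74 and the Rab44 value 3.53, and neither was called. Rab44 was also not called without WT 2 (4.4), its value was 4.91 without WT 3, and that of Rab27a 2.40 without ABCG1KO 2. The Rab27a call was kept in 9 of 16 alternative settings.

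The summed level of mast cell markers was also highest in ABCG1KO. The summed level of the 8 markers (Cpa3, Kit, Tpsb2, Cma1, Mcpt4, Ms4a2, Fcer1a and Hdc) was 52.9 CPM in ABCG1KO 1 and 9.20 CPM in ABCG1KO 2, against 0.233 to 5.36 CPM in WT and 0.194 to 0.756 CPM in LysM-DKO. Of the 5 markers tested, 1 (Kit) was called higher in ABCG1KO against WT, and 5 of 5 were called lower in LysM-DKO against ABCG1KO. Ms4a2 was at 0 in WT, Mcpt4 and Fcer1a were at 0 in LysM-DKO, and none of the 8 was at 0 in every ABCG1KO library. Within WT the order differed: in WT 1, 2 and 3 the sum was 3.05, 5.36 and 0.233 CPM, and Rab44 was at 0.0586, 0.359 and 0.543 CPM. The part of such cells in the Rab27a and Rab44 values was not tested. Of the other lists, the megakaryocyte sum was 166.9 and 102 CPM in ABCG1KO and nearly all of it was Pf4, at 163 and 99.1 CPM against 3.6 to 33.7 CPM in WT (edgeR adjusted p 0.0559). Ppbp was called higher but reached only 0.878 and 0.401 CPM, Itga2b was at 0.815 and 0.731 CPM, and Gp9 was at 0 in ABCG1KO. The dendritic cell markers summed to 12.5 and 12.8 CPM in ABCG1KO, above the 1.605 to 8.64 CPM of WT and the 1.31 to 3.00 CPM of LysM-DKO. Of the 4 tested, 3 were higher in ABCG1KO than in WT: Cd209a (5.21 and 9.55 CPM, 0.285 to 1.08 CPM in WT), Zbtb46 (5.21 and 2.62 CPM, 0.285 to 1.16 CPM) and Ccr7 (1.41 and 0.377 CPM, 0.0586 to 0.193 CPM). Clec9a was lower (0.314 and 0.212 CPM, 0.674 to 5.96 CPM). None of the 4 was called by edgeR against WT, and all 4 had an unadjusted p under 0.05. The part of such cells in the Rab values was not tested. Fibroblast markers summed to 160 and 1185 CPM in ABCG1KO, 755 to 913 CPM in WT and 678 to 1663 CPM in LysM-DKO. B cell markers summed to 3.13 to 38.2 CPM in WT and 3.04 and 16.3 CPM in ABCG1KO but to 0.0242 to 1.51 CPM in LysM-DKO, without overlap. All 6 tested B cell markers were negative in LysM-DKO against WT (median log2 fold change -4.40), 0 of them called by edgeR and 5 at an unadjusted p under 0.05, and the part of such cells in the LysM-DKO values was not tested. The T cell, neutrophil, and epithelial and mesothelial lists stayed at or under 51.8 CPM in every library, with both other groups overlapping WT.

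**Figure D4:**
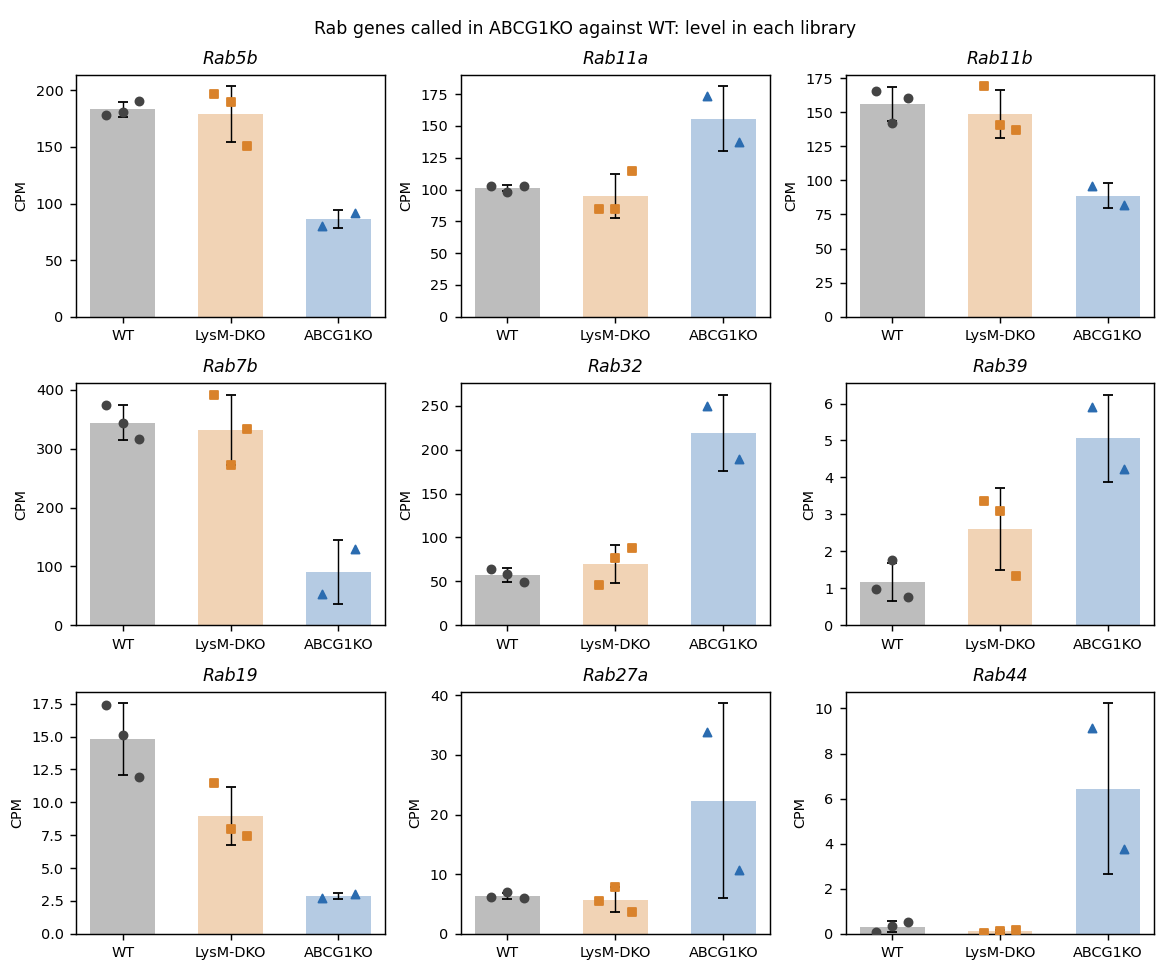
CPM (vertical axis, starting at 0, a scale per gene) of the 9 Rab genes called in ABCG1KO against WT, with bars for the group mean, error bars of 1 SD and 1 point per library (n = 3, 3 and 2). The ABCG1KO points lie outside the range of WT in all 9 genes, and in Rab27a and Rab44 the first ABCG1KO library stands well above the second.

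The 18 other tested secretory genes were not called in ABCG1KO. Rab1b, which acts between endoplasmic reticulum and Golgi, was at 277, 198 and 207 CPM in WT, 236, 196 and 215 CPM in LysM-DKO, and 195 and 191 CPM in ABCG1KO (log2 fold change -0.24, edgeR adjusted p 0.399). The smallest adjusted p-values among uncalled Rab genes belonged to Rab33b, a Golgi Rab of autophagy (0.50, edgeR adjusted p 0.0616), Rab2b, a Golgi Rab (-0.63, edgeR adjusted p 0.0645), and Rab31, an early endosome and Golgi Rab (0.42, edgeR adjusted p 0.0786). DESeq2 called these 3 as well, which gave 12 Rab genes with that tool (23.1%), where it called 23.4% of all genes. In the remaining class, Rab18 was at 116, 103 and 110 CPM in WT, 112, 107 and 117 CPM in LysM-DKO, and 146 and 120 CPM in ABCG1KO (log2 fold change 0.28, edgeR adjusted p 0.190). Rab40b had at most 2 counts in the ABCG1KO libraries and 2 to 4 in WT.

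A direct comparison of LysM-DKO with ABCG1KO called 10 of the 52 Rab genes (19.2%), where 13.4% of all genes tested were called. In this edgeR contrast 5 were higher and 5 lower in LysM-DKO, beside 7.76% and 5.64% of all genes. Over all genes the calls were 1073 higher and 780 lower, and 877 higher and 1018 lower with libraries scaled by size only, where 12 Rab genes were called (5 higher and 7 lower). The median log2 fold change was -0.09, beside 0.03 for all genes, and 31 of 52 genes (59.6%) did not overlap, where 48.2% of all genes separated. The higher genes in LysM-DKO were Rab5b (log2 fold change 1.06), Rab19 (1.64), Rab7b (1.86), Rab11b (0.74) and Rab2b (0.88). The lower genes were Rab32 (-1.65), Rab44 (-5.87), Rab27a (-1.96), Rab11a (-0.72) and Rab24 (-0.81). The edgeR Benjamini-Hochberg adjusted p-values ran from 0.00521 for Rab5b to 0.0329 for Rab11a. Rab2b, at 19.2, 19.8 and 17.4 CPM in LysM-DKO, was at 9.12 and 11.3 CPM in ABCG1KO and at 14.3 to 18.7 CPM in WT. Without ABCG1KO 1, only Rab5b and Rab7b were called in this contrast (2 genes), and without LysM-DKO 1, 5 Rab genes were called. The Rab27a value was -0.92 without ABCG1KO 1 and -2.56 without ABCG1KO 2, the Rab7b value 2.66 without ABCG1KO 2, and the Rab44 value -5.11 without ABCG1KO 1. This contrast uses the same ABCG1KO libraries as the comparison with WT and is no independent repeat of it.

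The steadiest Rab genes over all 8 libraries were Rab5a, Rab21 and Rab3d, singled out after their values were seen. The highest library was 1.12 times the lowest for Rab5a (77.7 to 87.1 CPM), 1.15 times for Rab21, which acts in integrin traffic (66.5 to 76.8 CPM), and 1.16 times for Rab3d (49.9 to 57.7 CPM).

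The genes that process, activate and read out Rab proteins were summarised from 5 lists. In ABCG1KO against WT, 0 of 8 genes for prenylation and membrane extraction were called (median log2 fold change 0.10), among them Gdi2, a dissociation inhibitor, at 586 ± 21.2 CPM in WT and 768 ± 51.4 CPM in ABCG1KO (edgeR adjusted p 0.101). Of 16 early endosome partners 1 was called, the fusion regulator Vps45, which fell by 1.11 on the log2 scale (standard error 0.156, edgeR adjusted p 0.00337) from 26.7 ± 1.45 to 12.4 ± 1.07 CPM. Of 16 recycling partners 3 were called higher and 1 lower. Ehd1, an ATPase of recycling tubules, rose by 2.02 (standard error 0.437, edgeR adjusted p 0.0203), from 53.9 ± 24.9 to 219 ± 42.5 CPM. Acap2, a Rab35 effector, rose by 0.58 (edgeR adjusted p 0.0312), and Dennd1a, an exchange factor of Rab35, fell by 0.53 (edgeR adjusted p 0.0264). The third higher gene was Rab11fip5, a Rab11 effector. The Vps45 call was kept in 16 of 16 alternative settings and the Ehd1 call in 14 of 16, but those of Acap2 (9 of 15) and Dennd1a (9 of 16) were kept in fewer.

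Partners of the later and secretory routes gave few calls in ABCG1KO. Of 20 late endosome partners 1 was called, Plekhm2, which links lysosomes to kinesin, and it fell by 0.93 (edgeR adjusted p 0.0426). Of 21 tested secretory partners 2 were called, both higher: Ric1, part of the Rab6 exchange factor, by 1.01 (edgeR adjusted p 0.0158), and Madd, an exchange factor of Rab3 and Rab27 proteins, by 0.95 (edgeR adjusted p 0.0439). The Madd value was 0.52 without ABCG1KO 1, and the calls were kept in 8 of 16 alternative settings for Plekhm2, 13 of 16 for Ric1 and 7 of 16 for Madd. With 16% of all genes called, the share was 25% for recycling, 9.52% for secretory, 6.25% for early endosome and 5% for late endosome partners. In LysM-DKO against ABCG1KO, where 13.4% of all genes were called, the calls were 5 higher and 2 lower of 16 recycling partners, 3 higher of 20 late endosome partners, 1 higher of 16 early endosome partners and 1 lower of 21 secretory partners. These counts depended on the scaling for the recycling partners, which with library size only gave 2 higher and 2 lower in this contrast, and 5 higher and 0 lower in ABCG1KO against WT. In ABCG1KO against WT that scaling also gave 2 higher prenylation genes, 2 higher and 1 lower early endosome partners, 1 higher and 0 lower late endosome partners and 5 higher secretory partners.

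In LysM-DKO against WT no partner was called by edgeR, and the partner lists had mostly positive fold changes. The counts of positive values were 15 of 16 for recycling, 18 of 21 for secretory, 16 of 20 for late endosome, 12 of 16 for early endosome partners and 5 of 8 for prenylation genes, where 7254 of all 13821 genes were positive. The medians were 0.25, 0.32, 0.13, 0.13 and 0.05 on the log2 scale, beside 0.02 for all genes tested. They stayed positive with RLE factors, where the recycling count was 13 of 16. Scaling by library size only gave 0.40, 0.46, 0.28, 0.28 and 0.20, beside 0.17 for all genes, of which 9432 were positive. That scaling raised the medians of all lists together, so it is no check of their sign. At an unadjusted p under 0.05 there were 2 of 16 recycling, 4 of 21 secretory, 3 of 20 late endosome, 2 of 16 early endosome partners and 0 of 8 prenylation genes, where 11.7% of all genes reached that level. The smallest p belonged to the Rab7 effector Osbpl1a, at 24.4 ± 4.49 CPM in WT (n = 3) and 41.2 ± 0.871 CPM in LysM-DKO (n = 3), with a log2 fold change of 0.75 (standard error 0.158, edgeR Benjamini-Hochberg adjusted p 0.234). DESeq2 called Osbpl1a (0.73), where it called 2.16% of all genes. In this comparison its result was recorded only for the partner with the smallest p of each list, so its calls among the other partners are not given.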

How the data were processed

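Each of the 8 deposited files held the whole-number counts of 1 library by gene symbol, in HTSeq's format, made by the authors from macrophage RNA. Per the submitters' processing notes, STAR 2.7.9a, TopHat, HTSeq 0.11.2, DESeq2 1.30.1 and limma were used with the mm10 build, with no order given. Annotation, strand setting and read length are not given in the sources used here, so overlapping genes are uncertain. The 5 special lines of each file were left out of library sizes and tests, and the report gives the shares of non-unique reads and of reads outside genes.

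The counts were fitted with edgeR 4.0.16 in R 4.3.3: filterByExpr (13821 genes), TMM factors, 1 robust quasi-likelihood fit of all 8 libraries with a term per group (5 residual degrees of freedom), and Benjamini-Hochberg adjustment over all genes at 0.05. The script was also run on counts simulated from the WT means and the fitted spread. These held no difference of sex or of non-unique reads, and no result here rests on them. CPM is counts over the TMM-scaled library size, and CPM per kilobase uses the exon union of GENCODE vM21, in which all 59 Rab symbols were matched. A 50-base word of a transcript is shared if it occurs at another locus. DESeq2 1.42.0 and the other alternatives are in the closing section.

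Values in every library are given for up to 12 Rab genes called in ABCG1KO against WT, 8 in LysM-DKO against ABCG1KO, the 6 with the smallest p in LysM-DKO against WT, Rab5a, Rab5c, Rab4a, Rab11a, Rab7 and Rab27a, and the highest gene of each class per kilobase in WT. From each partner list at most 3 genes by adjusted p are named with values. Rab2b, Rab3d, Rab4b, Rab15, Rab21, Rab24, Rab31, Rab33b, Rab38 and Rab40b were named outside this rule in some comparisons after their values were seen. The genes and lists were chosen with earlier results of these data known. No set test was made. Marker lists of 9 cell types were summed per library.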

Additional observations from a re-analysis of the deposited data

How the results depend on the processing

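The 3 counts of called Rab genes, the 3 medians and 64 named gene values were recomputed with RLE factors, library size only, no count filter, at least 10 counts in every library, both groups alone, DESeq2, a replicate block, genes under 1% shared sequence, and without each library in turn. Over all these genes and settings, 875 recomputed values kept direction and side of the threshold, 96 lost the call, 26 gained it and 7 changed sign. The calls of Rab19, Rab32, Rab5b, Rab7b and Vps45 in ABCG1KO against WT were kept in every alternative that tested them. The cause of the changes below was not tested.

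With library size only, the Rab medians were 0.13 (LysM-DKO against WT), 0.25 (ABCG1KO against WT) and -0.17 (LysM-DKO against ABCG1KO), and 18 Rab genes were called in ABCG1KO against WT. Sign changes under that setting were Rab5c (0.009), Rab11a (0.0581) and Rab1b (0.0735) in LysM-DKO against WT and Rab5c (0.0851) in ABCG1KO against WT. Without each library in turn in LysM-DKO against WT, 3 values changed sign: Rab1b ranged from -0.1941 to 0.0879 (positive without WT 1), Rab18 from -0.0303 to 0.0767 (negative without WT 2) and Rab27a from -0.4819 to 0.0791 (positive without LysM-DKO 3). The median in ABCG1KO against WT was 0.0503 with genes under 1% shared sequence, that in LysM-DKO against ABCG1KO -0.12 with at least 10 counts, and both groups alone gave 4 calls in the latter. DESeq2 called 12 Rab genes in ABCG1KO against WT and 13 in LysM-DKO against ABCG1KO, where it called 23.4% and 21.6% of all genes. Over all genes, the calls in LysM-DKO against WT were 5 with edgeR, 8 with both groups alone, 3 with at least 10 counts and 299 with DESeq2. Those in ABCG1KO against WT were 2216, with 1456 under the block, 1236 for genes under 1% shared sequence and 853 to 2090 without 1 library. Those in LysM-DKO against ABCG1KO were 1853, with 1024 under the block, 944 for genes under 1%, 948 with both groups alone, 2982 with DESeq2 and 561 to 1960 without 1 library.

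Without each library in turn, 0 to 0 Rab genes were called in LysM-DKO against WT (median -0.0486 to 0.007), 5 to 9 in ABCG1KO against WT (median -0.0353 to 0.12) and 2 to 10 in LysM-DKO against ABCG1KO (median -0.11 to -0.0476), the lowest counts both without ABCG1KO 1. With 1 library left, ABCG1KO is assumed to vary like the other groups. The replicate block gave 0, 6 and 6 Rab calls in the 3 comparisons and a median of -0.0248 in ABCG1KO against WT. The replicate numbers gave no uniform pairing: deviations of same-numbered libraries correlated at 0.0289, 0.489 and -0.0531 for WT with LysM-DKO. The 0.489 of WT 2 with LysM-DKO 2 was the highest between groups, but not every library correlated best with its own number. Deviations from a mean of 2 or 3 libraries depend on each other, so these values do not settle whether libraries were paired.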
